A study of Mus musculus with 2 samples.

Results

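The genes of the mitochondrial genome were taken as all genes of the GENCODE mouse M21 annotation whose symbol begins with mt-. There are 37 of them, 13 mRNA genes, 2 rRNA genes and 22 tRNA genes, each a single exon without introns. The control library listed 30 and the cold library 33, and 34 were listed in at least 1 library, out of 15523 named genes in all. At least 20 summed reads were reached by 24 genes, namely the 13 mRNAs, both rRNAs and 9 tRNAs. Native poly(A)+ RNA was read molecule by molecule on a nanopore, from the interscapular brown adipose tissue (a fat depot that burns fuel for heat) of male wild type C57BL/6N mice aged 20 weeks. The cold library pooled 3 mice that had been housed alone for 24 h at 4 °C. The control library carries the treatment label ctrl, though its protocol field repeats the cold treatment, and its pool size is not given in the sources used here. General housing was at 22 to 24 °C, and the extraction text names another fat depot (eWAT) than the tissue field does.

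The mitochondrial genome is a small circle that encodes core subunits of the respiratory chain and of ATP synthase, together with the rRNAs and tRNAs of the mitochondrial ribosome. Both of its strands are transcribed as long precursors. tRNAs lie between most other genes and are cut out, which frees the mRNAs and rRNAs. Most of these, though not all alike, then receive poly(A) or short oligo(A) tails. Most genes lie on the plus strand of the reference, while mt-Nd6 and a group of tRNA genes lie on the minus strand. Brown adipocytes are packed with mitochondria and carry much of this RNA.

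The libraries held 1698124 reads (control) and 1215617 reads (cold). With 1 library per group no test between conditions was possible, and every comparison is between these libraries, without a replicate check. RNA was caught by its poly(A) tail, so the values count tailed molecules and say nothing of tRNA, rRNA or mRNA without a tail. In RNA of a whole tissue, fewer cells of a type and less RNA per cell cannot be told apart. Values in parentheses are 95% counting intervals, which cover counting error only. Ratios are cold over control after trimmed-mean (TMM) scaling over all genes, under which the median of 7529 genes with at least 20 summed reads was at a log2 ratio of 0.00. The brown adipocyte markers fixed for the check (15 genes, among them Ucp1) were all listed in both libraries. They summed to 27424.4 (control) and 36936.8 (cold) reads in each 1000000 reads of the library. Of the 14 with at least 20 summed reads, 7 had an interval above a ratio of 1 and 2 below it, and 5 held 1. Of the cold-responsive genes, Ppargc1a had 27 and 132 reads, Dio2 59 and 284, and Ucp1 14860 and 14526, control first. Their ratios were 6.03 (3.96 to 9.49), 5.94 (4.47 to 8.0) and 1.21 (1.18 to 1.23). The 19 skeletal muscle markers were all listed in both libraries, at summed levels of 501.1 (control) and 2186.5 (cold) reads in each 1000000 reads of the library, and all 19 had an interval above a ratio of 1. The white adipocyte markers, of which 8 of 9 were listed in at least 1 library (Hoxc9 in neither), summed to 120.1 and 345.5 on the same scale, but did not all differ one way. Npr3 had 86 and 260 reads, Retn 70 and 118 and Nnat 1 and 22, while Lep had 36 and 5. Trem2 was not listed in the control. Muscle is rich in mitochondria too, and the part of muscle or white adipocyte RNA in the values below was not tested. Of nuclear genes ordered by transcript length, the 1871 shortest (301 to 1773 bases) had a median log2 ratio of -0.08, and the 3 following sets of 1871 had medians of 0.01, 0.05 and 0.04.

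Reads assigned to tRNA genes were almost entirely those of genes annotated on 1 strand, the minus strand. The 8 tRNA genes on the minus strand and mt-Ti, the plus-strand tRNA gene with the most reads, are shown because they held nearly all of these reads. Sequences are the GENCODE M21 transcripts on GRCm38, 5′ to 3′ on the gene's own strand and with T for U. Capitals mark the anticodon, found as the centre of a 7-base loop closed by a stem of 5 bases that reads the amino acid in the gene's name. On the minus strand mt-Tq (glutamine) spans chrM:3772-3842, mt-Ta (alanine) chrM:5018-5086, mt-Tn (asparagine) chrM:5089-5159, mt-Tc (cysteine) chrM:5192-5257, mt-Ty (tyrosine) chrM:5260-5326, mt-Ts1 (serine) chrM:6870-6938, mt-Te (glutamate) chrM:14071-14139 and mt-Tp (proline) chrM:15356-15422. On the plus strand mt-Ti (isoleucine) spans chrM:3706-3774 and shares its last 3 bases with the end of mt-Tq on the opposite strand.
mt-Tq: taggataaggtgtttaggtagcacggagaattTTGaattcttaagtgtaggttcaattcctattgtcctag
mt-Ta: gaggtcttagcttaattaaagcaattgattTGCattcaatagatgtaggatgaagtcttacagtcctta
mt-Tn: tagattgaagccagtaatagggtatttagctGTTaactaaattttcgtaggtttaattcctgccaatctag
mt-Tc: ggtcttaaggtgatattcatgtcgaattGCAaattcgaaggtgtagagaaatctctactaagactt
mt-Ty: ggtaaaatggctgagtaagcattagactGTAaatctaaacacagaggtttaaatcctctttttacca
mt-Ts1: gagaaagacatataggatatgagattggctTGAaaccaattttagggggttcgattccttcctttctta
mt-Te: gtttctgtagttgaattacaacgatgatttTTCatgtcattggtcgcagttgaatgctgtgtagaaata
mt-Tp: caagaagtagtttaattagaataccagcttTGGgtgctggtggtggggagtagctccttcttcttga
mt-Ti: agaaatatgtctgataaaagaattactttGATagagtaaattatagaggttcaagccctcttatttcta

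The 8 minus-strand genes took 455 control and 780 cold reads. The 14 plus-strand genes took 26 and 49. The ratio of reads of minus- to plus-strand tRNA genes was 17.5 (11.8 to 27.1) for the control library. For the cold one it was 15.9 (11.9 to 21.7), and these intervals overlap. All 8 minus-strand genes were listed in both libraries. Of the plus-strand genes, mt-Ti had 16 and 36 reads, and the other 13 together had 10 and 13, with no more than 5 for any one of them. These were mt-Td with 5 and 3 reads, mt-Tv with 1 and 2, and mt-Tm, mt-Tl2 and mt-Tt with 1 in each library. mt-Tk, mt-Th and mt-Ts2 (lysine, histidine and the second serine tRNA) were listed in neither library. mt-Tf, mt-Tl1, mt-Tg and mt-Tr were listed in the cold library alone, with 1 or 2 reads each, and mt-Tw in the control alone, with 1. Most plus-strand tRNA genes adjoin an rRNA or mRNA gene of their own strand, and of the minus-strand tRNA genes mt-Te adjoins mt-Nd6. Whether the authors' counting used the strand of a read is not given in the sources used here, and without strand the reads of a tRNA gene cannot be told apart from reads of the precursor opposite to it.

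**Figure D1:**
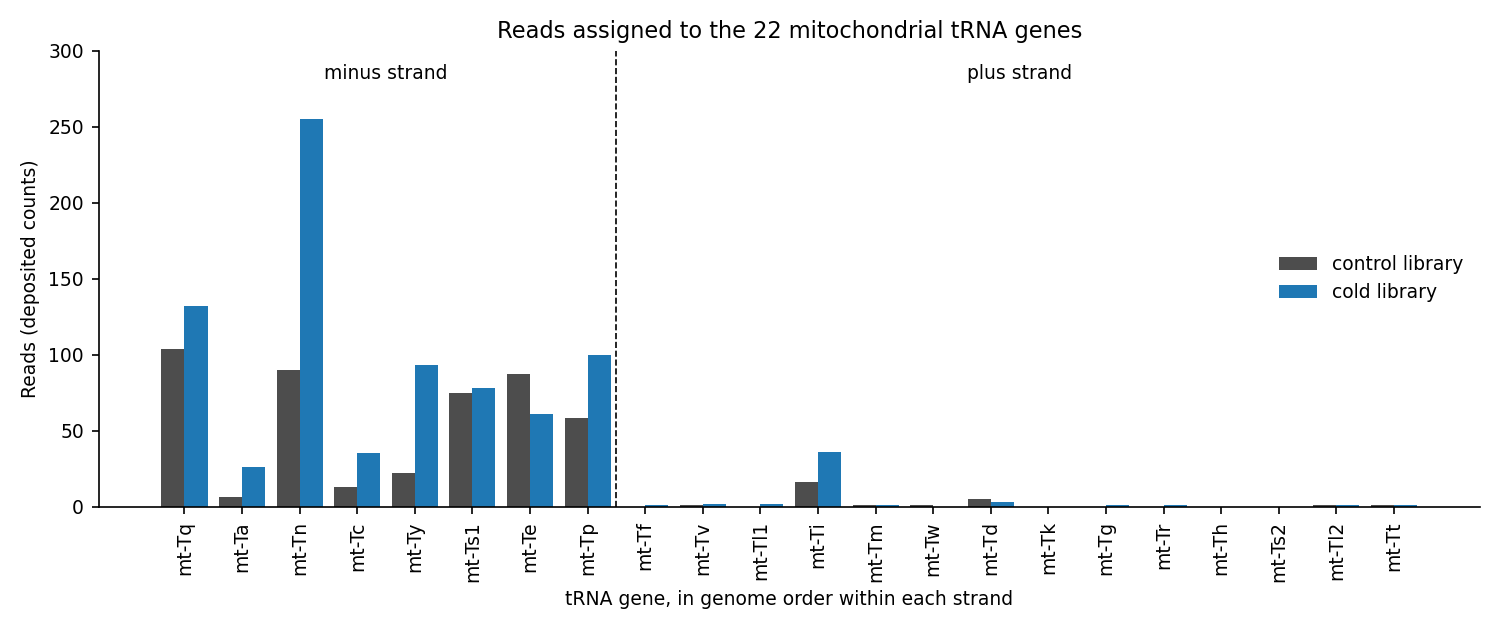
Bars give the deposited read counts (y axis) of each of the 22 mitochondrial tRNA genes (x axis), grey for the control and blue for the cold library. The 8 minus-strand genes hold 455 and 780 reads, the 14 plus-strand genes 26 and 49, most of them from mt-Ti.

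Reads of tRNA genes took a larger share of mitochondrial reads in the cold library. The share was 0.0894% (0.0816 to 0.0978) for the control library against 0.232% (0.217 to 0.248) for the cold one. The tRNA genes are 59 to 75 bases long, below the shortest nuclear transcripts compared by length (301 bases). Whether their reads are of tRNAs or of longer RNA that covers the gene was not tested. Of the 9 tRNA genes with at least 20 summed reads, 7 were at least 1.5-fold higher in the cold library, where 14.1% of all 7529 genes were, and 6 were at least 2-fold higher, where 4.87% of all genes were. None of the 9 was at least 1.5-fold lower. mt-Te, with 87 control and 61 cold reads, had the lowest ratio, 0.865 (0.613 to 1.21), and that interval holds 1. mt-Ts1 had 75 and 78 reads and a ratio of 1.28 (0.922 to 1.78), which likewise holds 1.

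The larger ratios lay together on the genome. mt-Ta, mt-Tn, mt-Tc and mt-Ty follow each other between mt-Nd2 and mt-Co1, around the origin of light-strand replication. mt-Ty had 22 control and 93 cold reads, 5.21-fold higher (3.25 to 8.72). mt-Tn had the most reads of all tRNA genes in the cold library, with 90 and 255, 3.49-fold higher (2.74 to 4.49). For mt-Ta (6 and 26 reads) the ratio was 5.34 (2.15 to 15.9), and for mt-Tc (13 and 35 reads) 3.32 (1.71 to 6.84). Together these 4 genes had 131 and 409 reads, a ratio of 3.85 (3.15 to 4.72), while the other 4 minus-strand tRNA genes had 324 and 371, a ratio of 1.41 (1.21 to 1.64). This grouping was made after the values were seen. Among those other genes mt-Tp was 2.13-fold higher (1.52 to 2.99) with 58 and 100 reads, and mt-Tq 1.57-fold higher (1.20 to 2.04) with 104 and 132. mt-Ti, across from mt-Tq, was 2.77-fold higher (1.5 to 5.36).

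The minus-strand mRNA had a lower ratio than the sum of the tRNA genes of its strand, but not than each of them. mt-Nd6, a membrane subunit of complex I (chrM:13552-14070), had 6377 control and 4975 cold reads, a ratio of 0.962 (0.927 to 0.999). The summed minus-strand tRNA genes had a ratio of 2.11 (1.88 to 2.38). The intervals of mt-Te (0.613 to 1.21) and mt-Ts1 (0.922 to 1.78) hold the ratio of mt-Nd6, and those of the other minus-strand tRNA genes lie above it. For each read of a minus-strand tRNA gene there were 14.0 mt-Nd6 reads (12.7 to 15.4) in the control library. In the cold one there were 6.38 (5.91 to 6.89). Genes of the minus strand together took 1.27% of mitochondrial reads (1.24 to 1.30) in the control library. In the cold one they took 1.61% (1.57 to 1.65). mt-Nd6 ends against mt-Nd5, the longest mitochondrial mRNA, with 14 bases in common on opposite strands (capitals in the ends below, 30 bases each). mt-Nd5 had 19147 and 13436 reads, or 3.0 (2.92 to 3.09) and 2.7 (2.61 to 2.79) per mt-Nd6 read. Per kilobase it stood at 0.854 of the level of mt-Nd6 (0.830 to 0.879) in the control and at 0.768 (0.744 to 0.794) in the cold library. mt-Nd5 was thus the higher of the pair by reads and mt-Nd6 per kilobase.
mt-Nd5: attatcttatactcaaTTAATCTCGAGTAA
mt-Nd6: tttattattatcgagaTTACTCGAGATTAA

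**Figure D2:**
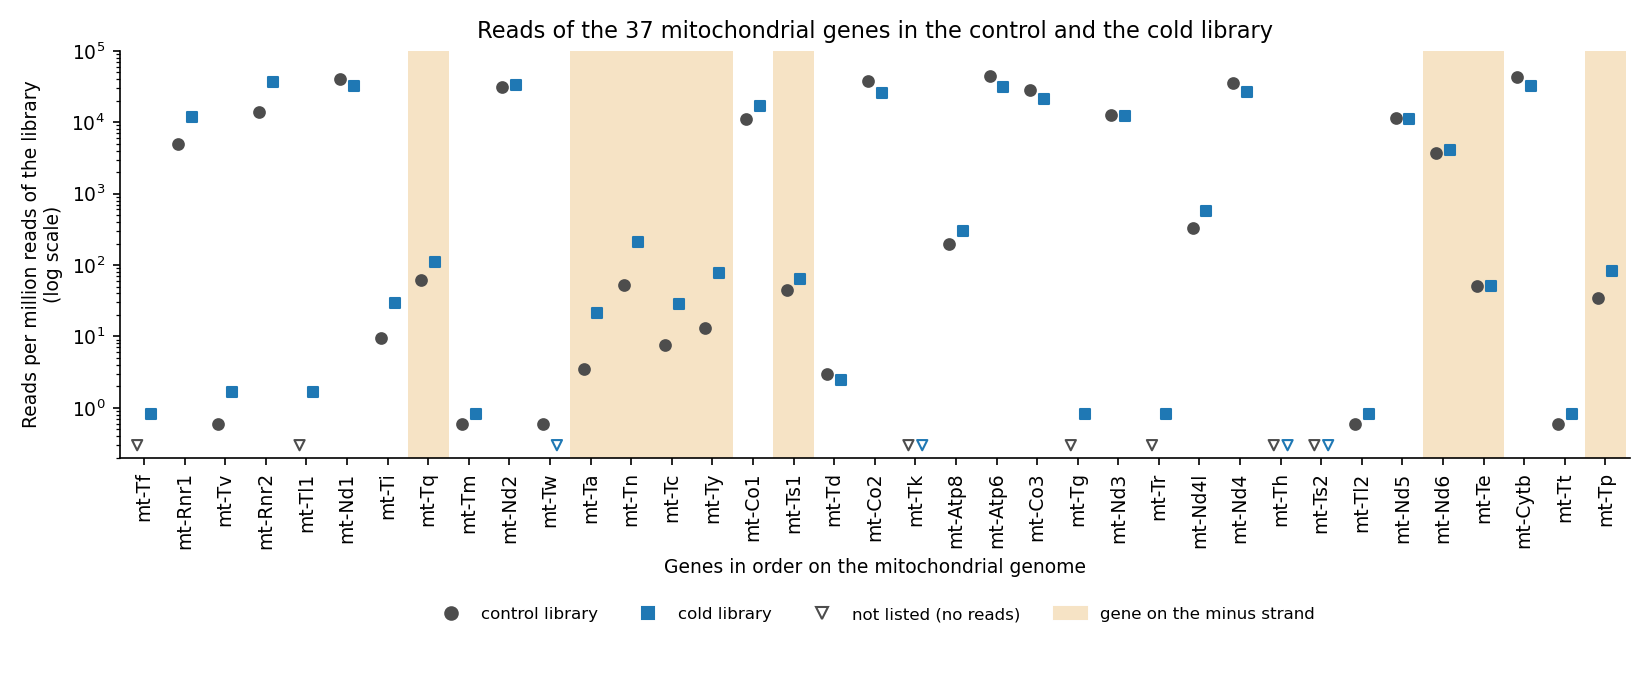
Reads in each 1000000 reads of the library on a log axis (y) for the 37 genes in genome order (x), grey circles for the control and blue squares for the cold library. Open triangles mark genes that a library does not list, and shading marks the minus strand, where the tRNA genes lie above the plus-strand tRNA genes other than mt-Ti.

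Both mitochondrial rRNAs had more reads in the cold library, although it was the smaller one. mt-Rnr1, the small-subunit rRNA (chrM:70-1024), had 8289 control and 14346 cold reads. mt-Rnr2, the large-subunit rRNA (chrM:1094-2675), had 23628 and 44388. Both were higher in the cold library, mt-Rnr1 2.13-fold (2.08 to 2.19) and mt-Rnr2 2.32-fold (2.28 to 2.35), and their joint share of mitochondrial reads, which needs no scaling between libraries, was 5.93% (5.87 to 6.0) and 16.4% (16.3 to 16.6). There were 15.8 mRNA reads per rRNA read (15.7 to 16) for the control library against 5.07 (5.02 to 5.11) for the cold one, or 21.1 and 6.56 with the reads of nuclear copies of mRNA genes added. Per kilobase, mt-Rnr2 stood at 1.72 times the level of mt-Rnr1 (1.68 to 1.76) in the control and 1.87 times (1.83 to 1.90) in the cold library. mt-Nd1 follows mt-Rnr2 on the same precursor, separated from it by mt-Tl1. It had 2.85 reads per mt-Rnr2 read (2.81 to 2.89) for the control library against 0.868 (0.856 to 0.880) for the cold one, so the order of the neighbours by reads differed between the libraries.

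Of the 13 mRNAs, 10 had an interval below a ratio of 1 and 3 above it, beside 11.3% of all genes each way. Such interval counts depend on read depth, and the genes behind the 11.3% were not matched to the mRNAs for it. With 6377 control and 4975 cold reads, even mt-Nd6, at a ratio of 0.962 (0.927 to 0.999), counted as below 1. Whether the mRNAs exceed genes of like depth was not tested. At least 1.5-fold lower were 5 of the mRNAs, where 14.8% of all genes were, and none was at least 2-fold lower, where 5.54% were. At least 1.5-fold higher was 1 of the 13, mt-Nd4l, where 14.1% of all genes were, and with total counts mt-Co1 (0.60 on the log2 scale) and mt-Atp8 (0.63) were too. With total counts none of the 5 stayed past 1.5-fold, and with total counts free of mitochondrial genes 1 did. The median log2 ratio of the 13 was -0.26, or -0.08 with total counts, which move all ratios up by 0.18. The 5 were mt-Co2, mt-Atp6, mt-Co3, mt-Nd4 and mt-Cytb, with log2 ratios of -0.73, -0.69, -0.63, -0.60 and -0.59. mt-Nd2 (-0.10) and mt-Nd6 (-0.06) lay above 0 with total counts, at 0.08 and 0.12.

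**Figure D3:**
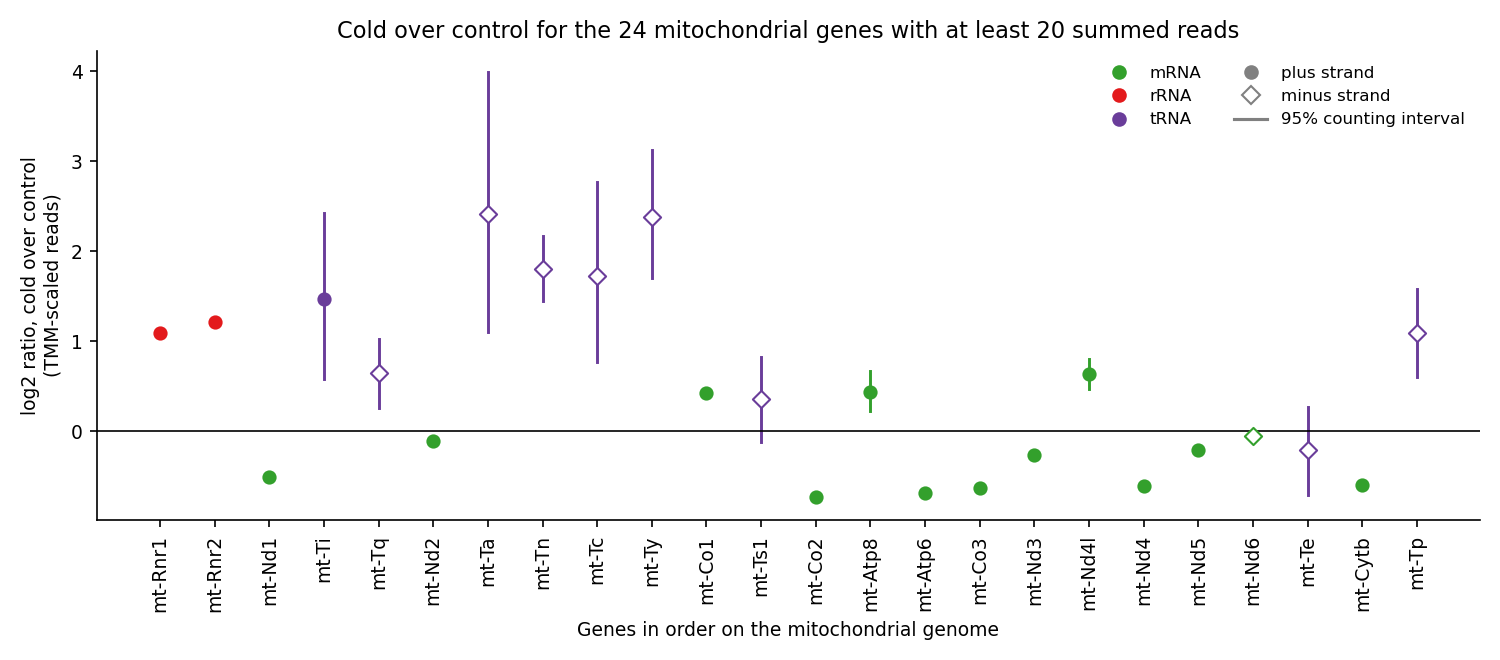
The log2 of the cold to control ratio of TMM-scaled reads, without a prior count (y axis), for the 24 genes with at least 20 summed reads in genome order (x axis), with 95% counting intervals as lines. Both rRNAs lie above 1 on this axis, 10 of 13 mRNAs below 0, and the tRNA genes mt-Ti, mt-Ta, mt-Tn, mt-Tc, mt-Ty and mt-Tp above 1.

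Within the mRNA pool, where the scaling between libraries has no part, mt-Co1 and several complex I subunits had larger shares in the cold library, and mt-Co2, mt-Co3, mt-Atp6 and mt-Cytb smaller ones. mt-Co1, the catalytic subunit of cytochrome c oxidase (chrM:5328-6872), had 18592 control and 20207 cold reads. Its share of mitochondrial mRNA reads was 3.68% (3.63 to 3.73) and 6.79% (6.70 to 6.88), 1.85 times as large in the cold library. The other subunits of the same complex had smaller shares there. mt-Co2, which takes electrons from cytochrome c, had 63232 and 30897 reads, a share of 12.5% (12.4 to 12.6) and 10.4% (10.3 to 10.5). mt-Co3, with 48404 and 25377 reads, had 9.57% (9.49 to 9.65) and 8.52% (8.42 to 8.63).

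Complex I, the NADH dehydrogenase, has 7 mitochondrial subunits, and their joint share of mRNA reads was 44.9% for the control library against 48.3% for the cold one. mt-Nd2 had 52689 and 39762 reads, a share of 10.4% (10.3 to 10.5) and 13.4% (13.2 to 13.5). mt-Nd5 (3.79% and 4.51%), mt-Nd3 (4.30% and 4.94%) and mt-Nd6 (1.26% and 1.67%) also had larger shares in the cold library, with intervals that do not overlap. mt-Nd1, with 67334 and 38530 reads, had a share of 13.3% (13.2 to 13.4) and 12.9% (12.8 to 13.1), and mt-Nd4, with 59282 and 31674 reads, one of 11.7% (11.6 to 11.8) and 10.6% (10.5 to 10.8). Within complex I the shares of mt-Nd1 and mt-Nd4 were thus smaller in the cold library and those of the other 5 larger, mt-Nd4l being described with mt-Nd4. With the reads of nuclear copies added the share of mt-Nd1 was 9.99% and 10%, so its smaller cold share was lost.

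Complex III and ATP synthase had smaller shares in the cold library. mt-Cytb, the mitochondrial subunit of complex III, had 72975 and 39318 reads, a share of 14.4% (14.3 to 14.5) and 13.2% (13.1 to 13.3). mt-Atp6, part of the proton channel of ATP synthase, had 74956 and 37730 reads, a share of 14.8% (14.7 to 14.9) and 12.7% (12.6 to 12.8). In the control it had the largest share of the 13, and in the cold library mt-Nd2 did, with an interval that overlaps that of mt-Cytb. With the reads of nuclear copies added mt-Atp6 had the largest share in both libraries (20.3% and 17.7%), and mt-Nd2 had 7.82% and 10.3%.

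**Figure D4:**
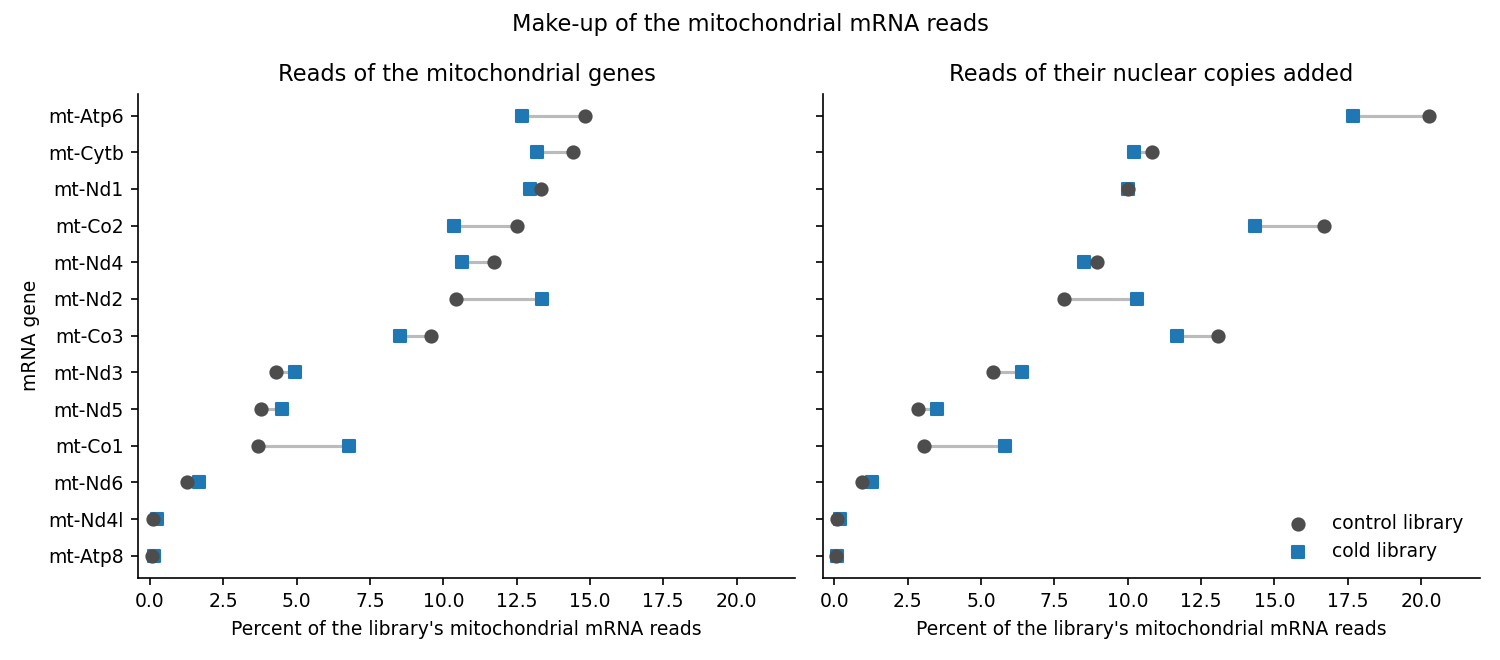
Share of each mRNA in the library's mitochondrial mRNA reads (x axis, percent) for the 13 mRNA genes (y axis), grey circles for the control and blue squares for the cold library, without (left) and with (right) the reads of nuclear copies. On the left mt-Co1 lies at 3.68% (control) and 6.79% (cold) and on the right at 3.05% and 5.81%, and mt-Atp6 at 14.8% and 12.7% and at 20.3% and 17.7%.

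The bicistronic pairs hold the mRNAs with the fewest reads. mt-Atp8, a small subunit of ATP synthase, shares its last 43 bases with the start of mt-Atp6 in another reading frame (capitals below, with the 15 bases before them in lower case). mt-Nd4l shares 7 bases with mt-Nd4. These mRNAs are made as joint molecules, and how a read that covers both genes was counted is not given in the sources used here. mt-Atp8 had 333 control and 368 cold reads and mt-Nd4l 558 and 704, a ratio of 1.36 (1.17 to 1.59) and 1.56 (1.39 to 1.74). Their shares of mRNA reads were 0.0659% and 0.124% for mt-Atp8 and 0.11% and 0.236% for mt-Nd4l. There were 225.1 mt-Atp6 reads per mt-Atp8 read (202.1 to 251.4) for the control library against 102.5 (92.5 to 113.9) for the cold one, and 106.2 mt-Nd4 reads per mt-Nd4l read (97.7 to 115.7) against 45.0 (41.8 to 48.5). Summed over each pair, the ratio was 0.624 (0.616 to 0.632) for mt-Atp8 with mt-Atp6 and 0.667 (0.658 to 0.676) for mt-Nd4l with mt-Nd4, beside 0.621 for mt-Atp6 and 0.659 for mt-Nd4 alone.
mt-Atp8: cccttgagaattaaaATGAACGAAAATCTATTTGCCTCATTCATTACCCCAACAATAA

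Reads were also set per kilobase, although in direct RNA sequencing each read is 1 molecule whatever its length. An order per kilobase is thus not an order by molecules. By reads, mt-Atp6 (74956) led the control library. The cold one was led by mt-Rnr2 (44388), above mt-Nd2 (39762) and mt-Atp6 (37730). With the reads of nuclear copies added, mt-Atp6 had the most reads in both (136548 and 68005). In reads per kilobase in each 1000000 reads, the control library was led by mt-Atp6 (64817.1), mt-Co2 (54439.2) and mt-Nd1 (41433.6). mt-Cytb (37564.6), mt-Nd3 (36769.8) and mt-Co3 (36357.6) followed, of which mt-Nd3 and mt-Co3 had overlapping intervals. mt-Nd2 (29891.9) and mt-Nd4 (25334.0) came next, well above mt-Rnr2 (8795.3). mt-Nd6 (7235.7), mt-Co1 (7086.4), mt-Nd5 (6181.7) and mt-Rnr1 (5111.3) stood lower still, with overlapping intervals for mt-Nd6 and mt-Co1. At the end stood mt-Nd4l (1106.4) and mt-Atp8 (961.3), whose intervals overlapped as well. In the cold library mt-Atp6 (45576.7) and mt-Co2 (37159.0) again led per kilobase. No neighbours in the order overlapped there, and mt-Rnr2 (23081.4) stood above mt-Nd4 (18908.5), and mt-Rnr1 (12357.5) above mt-Co1 (10759.1).

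The ratios of the mRNAs were set beside gene position and length. Across the 12 plus-strand mRNAs the log2 ratio and the start position had Pearson's r = -0.12 and Spearman's rho = -0.06. Across all 13 the log2 ratio and the transcript length had r = -0.22 and rho = -0.23, or r = 0.32 and rho = 0.26 over 11 without mt-Atp8 and mt-Nd4l. These are descriptions over genes that share the same libraries, with no test. In 3 mRNAs the reference ends in a T that the poly(A) tail turns into a stop codon, shown in capitals at the end of their last 24 bases. Their log2 ratios were -0.63 (mt-Co3), -0.60 (mt-Nd4) and -0.59 (mt-Cytb), inside the range of -0.73 to 0.64 of the 10 mRNAs that carry a complete TAA or TAG.
mt-Co3: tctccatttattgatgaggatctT
mt-Nd4: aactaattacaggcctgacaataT
mt-Cytb: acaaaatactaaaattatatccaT

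A stretch of chromosome 1 (chr1:24611535-24616197, minus strand) holds 7 pseudogenes that copy mitochondrial genes nearly base for base, and reads were listed under them as well. The copies of mt-Co2 (Gm28661), mt-Atp6 (Gm10925) and mt-Co3 (Gm28437) are 99.6%, 99.6% and 99.9% as long as the mitochondrial gene and had no edit against it. That of mt-Nd3 (Gm28438) is 99.1% as long with 1 edit. In the control they took 43.8% (43.5 to 44.1), 45.1% (44.8 to 45.4), 45.1% (44.8 to 45.5) and 40.3% (39.7 to 40.8) of the joint reads of copy and gene, and in the cold library 44.0% (43.6 to 44.4), 44.5% (44.1 to 44.9), 43.6% (43.1 to 44.1) and 40.1% (39.5 to 40.8). Within the copied stretch, reads of the copies of mt-Co2, mt-Atp6 and mt-Co3 cannot be told apart from those of the gene by sequence. For mt-Nd3 they can be only at the edited base.

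The remaining copies took few of the joint reads. Gm29216 covers the last 31.8% of mt-Co1 with 6 edits and took 9.59% for the control library against 9.62% for the cold one. Gm28439 covers the first 63.6% of mt-Nd4 without an edit and took 1.59% (1.49 to 1.69) and 3.14% (2.95 to 3.33). Gm10222, named although its reads were below the minimum of the naming rule, copies mt-Nd4l at 99.0% of its length without an edit. It took 8.52% (6.43 to 11) and 8.69% (6.80 to 10.9). Within the copied stretch, reads of Gm28439 and Gm10222 likewise cannot be told apart from those of the gene by sequence. Adding each copy to its gene moved no log2 ratio by more than 0.0393 (mt-Co3), but changed the order of the levels and took mt-Nd4 to 1.49-fold lower, which left 4 members at least 1.5-fold lower in place of 5. In the control mt-Co3 then had rank 3 per kilobase in place of rank 6, and mt-Nd1 rank 5 in place of rank 3. The share of cytochrome oxidase subunits in mRNA reads became 32.8% for the control library against 31.8% for the cold one in place of 25.8% and 25.7%. Mitochondrial genes took 41.6% and 36.6% of all reads with the copies, and 31.7% and 29.4% without.

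**Figure D5:**
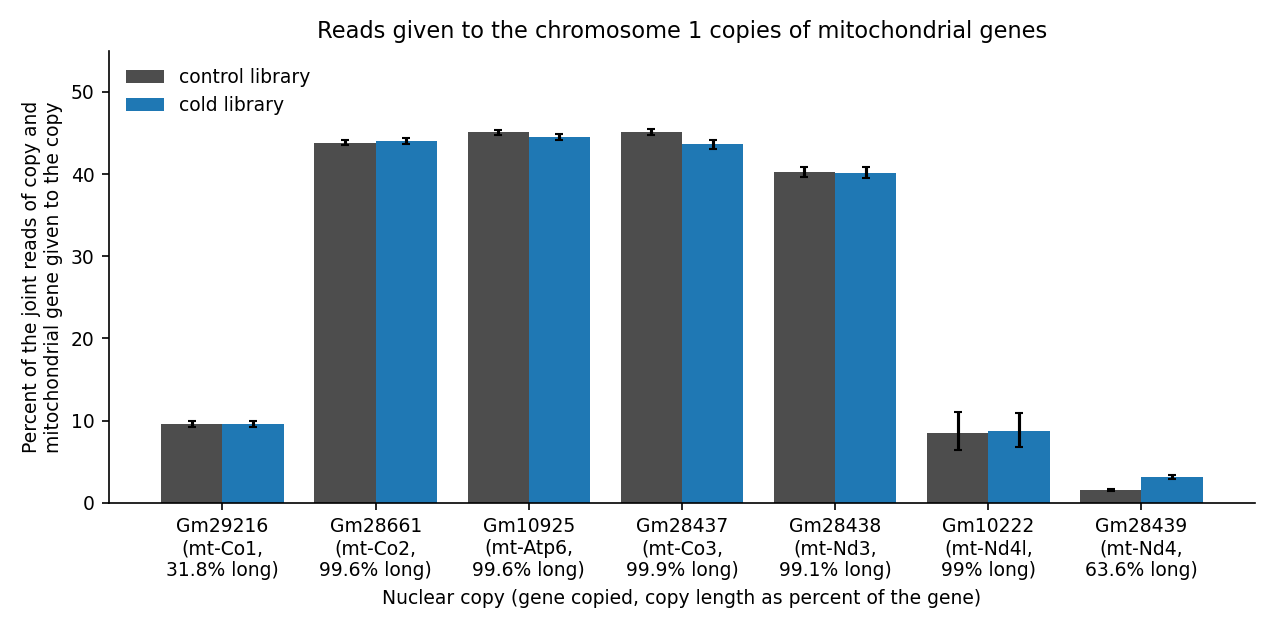
Bars give the percent of the joint reads of a chromosome 1 copy and its mitochondrial gene that were listed under the copy (y axis) for the 7 copies (x axis), grey for the control and blue for the cold library, with 95% counting intervals. The copies of mt-Co2, mt-Atp6, mt-Co3 and mt-Nd3 lie between 40.1% and 45.1%, the others below 10%. Among those others, the copy of mt-Nd4l is nearly full-length too (99.0% as long as the gene).

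The nuclear partners of these genes were compared on the same scale. Of 83 measured nuclear subunits of complexes I to V with cytochrome c, 58 had an interval below a ratio of 1 and 4 above it, beside 11.3% of all genes each way. The subunits held 129276 control and 91172 cold reads, and the genes behind the 11.3% were not matched to them for read depth. Such interval counts depend on that depth. The median log2 ratio of the subunits was -0.21, and -0.03 with total counts. The median of all genes on the same scale was 0.00. By complex the medians were -0.21 for complex I (37 genes), -0.24 for complex II, which has no mitochondrial gene (4 genes), -0.21 for complex III with cytochrome c (10), -0.23 for complex IV (15) and -0.16 for ATP synthase (17). The lists count Ndufa4 with complex I, Cox7a2l with complex IV and Atpif1 with ATP synthase. These genes can also be grouped otherwise, and medians without them were not computed. Summed over the mitochondrial mRNAs of each complex, log2 ratios were -0.36 for complex I, -0.59 for III, -0.47 for IV and -0.68 for V. These sums follow the mRNAs with the most reads and are another measure than the nuclear medians. Gene by gene, mitochondrial log2 ratios ran from -0.60 (mt-Nd4) to 0.64 (mt-Nd4l) in complex I. In complex IV they ran from -0.73 (mt-Co2) to 0.42 (mt-Co1). In complex V they were -0.69 (mt-Atp6) and 0.45 (mt-Atp8). Cox8b, a complex IV subunit abundant in brown fat, had 4164 and 2431 reads (1.39-fold lower, 1.32 to 1.46), and Atp5b, the catalytic beta subunit of ATP synthase, 5654 and 4520 (a ratio of 0.986, 0.948 to 1.03).

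Nuclear factors that make and handle mitochondrial RNA had few reads. Of 46 measured, 41 had an interval that held 1, with 3 above and 2 below, beside 11.3% of all genes each way. The genes behind the 11.3% were not matched to these factors for read depth either. The median log2 ratio of the factors was 0.09. Tfam, which packages mitochondrial DNA and starts its transcription, had 62 and 74 reads, a ratio of 1.47 (1.04 to 2.10). Tfb2m, the other initiation factor, had 100 and 56 reads and was 1.45-fold lower (1.03 to 2.05). Among factors of RNA cleavage and stability, Grsf1, which binds mitochondrial RNA in granules where it is processed, had 200 and 241 reads, a ratio of 1.49 (1.23 to 1.80). Hsd17b10, a subunit of the RNase P that cuts tRNA 5′ ends, had 179 and 101 reads and was 1.44-fold lower (1.12 to 1.85). None of the 13 genes of rRNA modification and ribosome assembly had an interval that left out 1.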

How the data were processed

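Poly(A)+ RNA was selected on oligo(dT) beads and 500 ng went into SQK-RNA002 direct RNA libraries, per the labels' protocols. The authors deposited unnormalized counts of reads for each transcript, with no transcript below 1 read. minimap2 and GRCm38 are named in the submitters' processing notes. For the annotation release, strand and reads that match several transcripts, the authors' choices were not given in the sources used here.

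Counts were summed to genes by transcript identifier (GENCODE M21). Transcripts without a gene held 0.0571% and 0.0652% of reads. Libraries were scaled with edgeR 4.0.16 TMM factors (0.940 control, 1.06 cold), and log2 ratios carry a prior of 0.5 reads. Counting intervals are exact Clopper-Pearson intervals, of a share or, for ratios, of the cold share of both counts. The ratio intervals were tested on simulated counts that vary by counting error only. That cannot show how they fare with spread between mice or libraries. A nuclear gene counted as a copy when at least 90% of its 31-base words occur in a mitochondrial gene. All 37 members are reported, with the copies of at least 1000 summed reads, Ucp1, Ppargc1a, Dio2 and part of the nuclear genes picked per list (2 highest, 2 lowest and 2 most abundant among those with at least 50 summed reads). Other scalings (DESeq2 1.42.0, total counts), minimums and priors were tried. Members and lists were chosen with earlier results of these data known.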

Additional observations from a re-analysis of the deposited data

How the results depend on the processing

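Each group has 1 library, so no replicate could be left out. No paired analysis was possible because each group has 1 library. With a prior of 2 reads all 24 log2 ratios stayed inside their counting intervals. Total counts turned mt-Nd2 to 0.08 and mt-Nd6 to 0.12, total counts free of mitochondrial genes turned them to 0.03 and 0.08, and leaving out the nuclear copies too turned mt-Nd6 to 0.01. The median log2 ratio of the 13 mRNAs was -0.08, -0.13 and -0.20 with these 3 scalings. Of the 5 members at least 1.5-fold lower, total counts left 0, or 1 once mitochondrial genes were taken out of the totals. The members at least 2-fold higher were 13 with a minimum of 1 summed read and 5 with 100, in place of 8, and 1 was at least 2-fold lower with a minimum of 1 read, in place of 0. Those at a minimum of 1 include tRNA genes listed in 1 library only. These scalings shift every ratio by 1 constant, and the minimums change which genes enter.

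Adding the nuclear copies gave a mitochondrial share of 41.6% (control) and 36.6% (cold), mt-Atp6 shares of 19.3% and 15.3% of mitochondrial reads, mt-Rnr2 shares of 3.35% and 9.98%, and 21.1 and 6.56 mRNA reads per rRNA read. Of mRNA reads alone, mt-Atp6 took 14.8% and 12.7%. Minus-strand tRNA genes took 0.0268% and 0.0642% of all reads. With total counts the median was -0.03 for nuclear subunits, 0.02 for those of ATP synthase and 0.27 for the mitochondrial nucleic acid factors. With a minimum of 100 reads the transcription and replication list had a median of -0.52 in place of 0.16. Low read numbers limit the ratios of tRNA genes, most of all on the plus strand.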
